A study of Homo sapiens with 2 samples.

Results

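Of 23782 ADAR1 clusters in the deposited list, 47 lay in windows chosen for the NBPF, ANKRD36 and snaR loci. The list came from U87MG, a human cell line long grown in culture and labelled glioblastoma (astrocytoma). A cluster is a stretch of the genome where RNA fragments crosslinked to ADAR1 piled up. The 47 lie in 4 windows of the hg19 genome and were chosen by the position of their midpoint. The windows themselves were chosen from this same list because clusters there recur at regular distances, so spacing is given as a description, with no test. The NBPF9 window is chr1:144800000-144900000 and holds 13 clusters. The NBPF10 window is chr1:145290000-145370000 and holds 17. The ANKRD36 window is the plus strand of chr2:97779000-97931000 and holds 8. The snaR window is chr19:50590000-50650000 and holds 9.

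Binding was mapped by CLIP-seq, in which ultraviolet light links a protein to the RNA it touches before an antibody recovers both and the RNA is sequenced. The cells were at passage 6 and no genetic change or drug is named. There were 2 libraries, labelled AB1 and AB2; the design text speaks of different mouse monoclonal antibodies to ADAR1, but both labels carry the same catalogue entry. The deposited list does not separate the 2 libraries and holds no tag number or score, so no value here has a replicate, a depth or a comparison between antibodies.

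ADAR1 is an RNA-editing enzyme that binds double-stranded RNA and deaminates its adenosines to inosines. NBPF genes, the neuroblastoma breakpoint family, encode proteins built from many copies of the Olduvai (DUF1220) domain, a domain that multiplied in the human lineage. ANKRD36 is an ankyrin repeat gene on chromosome 2, with close relatives on the same chromosome. The snaR RNAs (small NF90-associated RNAs) are short, strongly folded noncoding RNAs made by RNA polymerase III and bound by NF90, a double-stranded RNA binding protein. All these genes exist as near-identical copies, to which a short read can match at several places. How such reads were placed is not given in the sources used here, and its part in any spacing below was not tested.

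Repeated exons show what recurs in the coding genes. They were read from GENCODE release 29 transcripts on GRCh38 and not from the clusters, which were not placed on exons because no hg19 annotation was used. NBPF10-201, a transcript of 90 exons, has 13 copies of an exon of 109 bases, and 12 of them are identical; the capital marks the single position at which the copies differ.

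NBPF10 exon of 109 bases: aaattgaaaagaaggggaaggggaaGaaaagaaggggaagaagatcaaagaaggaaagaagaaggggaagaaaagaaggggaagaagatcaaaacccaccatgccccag

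ANKRD36-204, a transcript of 75 exons, has 26 pairs of an exon of 29 bases followed by one of 73 bases. The 29-base exons of 6 consecutive pairs are shown because they come from the stretch whose spacing is compared with the clusters below. Capitals mark the 7 positions at which these 6 differ.

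ANKRD36 unit 1: tgtcttctCGgaaaAAaccaGCcttgAag
ANKRD36 unit 2: tgtcttctCAgaaaCCaccaACcttgAag
ANKRD36 unit 3: tgtcttctGAgaaaCCaccaGGcttgAag
ANKRD36 unit 4: tgtcttctCGgaaaAAaccaTCcttgGag
ANKRD36 unit 5: tgtcttctCAgaaaCCaccaGCcttgAag
ANKRD36 unit 6: tgtcttctGAgaaaCCaccaGGcttgAag

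Units 3 and 6 carry the same 29 bases, units 2 and 5 share 28 of them and units 1 and 4 share 27. Neighbouring units share 22 to 27. Not all repeated exons of NBPF10 are as uniform as the one shown: between copies, the median identity was 100% for the 109-base exon, 88.5% for a 52-base exon (27 copies) and 87.3% for a 173-base exon (38 copies), beside 86.2% for the 29-base exon of ANKRD36. The 6 ANKRD36 units are consecutive and are not 1 for each cluster: in the placement given below, clusters fall on units 2, 3, 5 and 6 of those shown and on none of units 1 and 4. That placement was picked to match the clusters, so the likeness of its units is a description.

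Across the 4 windows, 46 of the 47 clusters were non-Alu, that is, classed by the authors as lying outside Alu repeats. In the whole list 15.1% of clusters were non-Alu. The single Alu cluster lay in the ANKRD36 window. All 17 clusters of the NBPF10 window were on the plus strand and all 9 of the snaR window on the minus strand. The 8 of the ANKRD36 window were plus by the rule. How often close clusters share a strand in the whole list is not given here. The NBPF9 window was the exception, with 10 clusters on the plus strand and 3 on the opposite strand. These 3 started at 144851816 or later, beyond the last plus-strand cluster, which ended at 144828810. No gene was assigned to them, so they are members by position alone and may not belong to an NBPF gene.

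**Figure D1:**
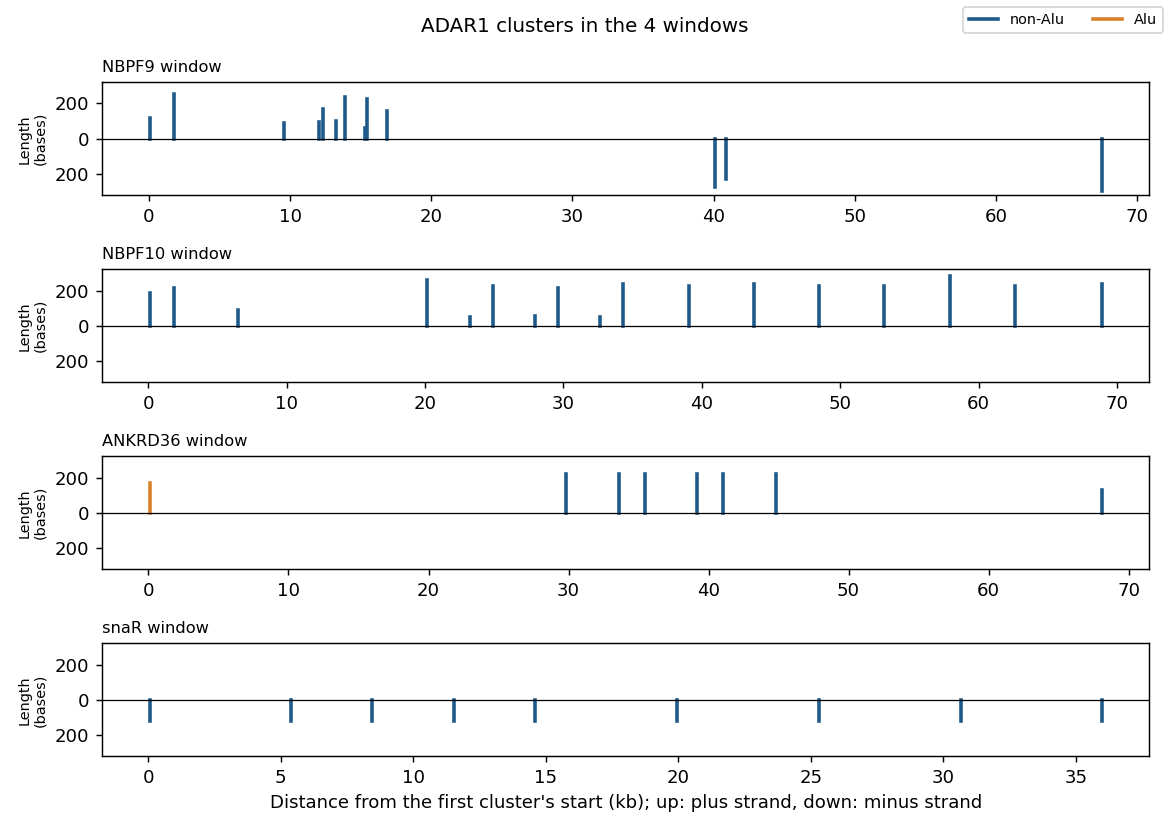
Clusters in the 4 windows. The x axis is the distance in kb from the start of the first cluster of the window, and the height of each line is the length of the cluster in bases, upward for the plus and downward for the minus strand; blue is non-Alu and orange is Alu. The NBPF10 and snaR clusters form ladders, the 6 equal ANKRD36 clusters start within 14953 bases, and the 13 clusters of the NBPF9 window are unevenly spaced.

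The NBPF10 window held the longest ladder. The 11 long clusters of this ladder, each of 212 to 280 bases, ran from 145313509 to 145362494 on the plus strand. Another cluster of the window, 214 bases long at 145295224, lay before them and was left out of the ladder. The steps between their starts were, in order, 4720, 4768, 4656, 4745, 4691, 4735, 4724, 4730, 4734 and 6245 bases. The first 9 steps therefore stayed between 4656 and 4768 bases, with a mean of 4723 ± 32.3 (SD over steps), and the last step, to the cluster at 145362257, broke the rhythm. Lengths along the ladder repeated less strictly: 5 of the 11 clusters were 223 bases long, 2 were 238, and the others were 212, 237, 262 and 280.

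Short clusters formed a second series inside the first 3 units of that ladder. They started at 145316671, 145321382 and 145326111 and were 49, 57 and 49 bases long. Each followed the previous long cluster by 3162, 3153 and 3114 bases and preceded the next by 1558, 1615 and 1542 bases. The remaining 7 intervals between long clusters held no short cluster. With no tag counts, a short cluster that was missed cannot be told apart from one that was absent.

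The cluster ladder and the repeated exon of NBPF10 had nearly the same period. In NBPF10-201, 11 of the 12 distances between consecutive 109-base exons lay between 4710 and 4736 bases, with a median of 4722, and the other was 3144 bases. This exon was chosen with the cluster steps known. The other exon lengths with 10 or more copies in this transcript were 52 and 173 bases. All 37 distances between consecutive 173-base exons (38 copies) lay between 1540 and 1608 bases, with a median of 1582. The 26 distances of the 52-base exon (27 copies) ran from 1529 to 5158 bases. Their median was 2371 bases, but none lay within 50 bases of it, so this exon has no single period. The period of the ladder lies near a whole multiple of the median of the 173-base exon, so it does not point to 1 exon. This sets distances side by side and not positions, since the 2 builds differ here: the clusters lie on the plus strand of hg19, whereas GENCODE places NBPF10 on the minus strand of GRCh38. RefSeq (GRCh38.p14) also lists NBPF9 among the synonyms of NBPF10, so the window names follow the choice of windows and were not checked against an hg19 annotation.

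The 3 other clusters of the NBPF10 window lay before the ladder and outside its rhythm. They started at 145293467, 145295224 and 145299871 and were 186, 214 and 88 bases long. The steps between them were 1757 and 4647 bases, and 13638 bases separated the last of them from the first long cluster of the ladder. The 4647-base step falls just below the range of the ladder.

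The NBPF9 window was less regular than the others. Its 10 plus-strand clusters lay within 16974 bases, from 144811837 to 144828810, with steps of 95 to 7832 bases. Their lengths ran from 63 to 253 bases, and no neighbours were equally long. Of 46 same-strand pairs under 20 kb apart in this window, 4 had a spacing that another pair repeated within 10 bases, and none did so to the base; 7 did so within 50 bases. The most frequent spacing was 1505 ± 44.3 bases (SD over 4 pairs, 1475 to 1570). Clusters at 144824112, 144825591, 144827181 and 144828656, of 171, 234, 223 and 155 bases, followed each other by 1479, 1590 and 1475 bases, with other clusters between them; this run was picked out after its values were seen. The 173-base exon of NBPF10-201 repeats at 1540 to 1608 bases, a range that holds the second of these 3 spacings and not the other two. The 3 minus-strand clusters started at 144851816, 144852568 and 144879170, and were 271, 231 and 294 bases long. How regular this window appears thus depends on the tolerance.

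ANKRD36 gave the most exact repetition of the coding loci. Its 6 clusters from 97859052 to 97874225 were each 221 bases long, and their starts were 3735, 1870, 3735, 1870 and 3743 bases apart. Taken over 2 steps, the distance was 5605 bases in 3 cases and 5613 in the other. Counted in units of 1870 bases from the first cluster, the 6 occupied units 0, 2, 3, 5, 6 and 8, each within 10 bases of a whole unit. Units 1, 4 and 7 held no cluster.

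The exon pairs of ANKRD36 repeat with the same unit. In ANKRD36-204 on GRCh38, 22 of the 25 distances between consecutive 29-base exons lay between 1857 and 1891 bases, and the median was 1872. When the 6 cluster offsets were laid over these exons, the first cluster was set on a starting exon and the other 5 offsets were free to match. In 1 of the closest placements 4 of these 5 matched the exon spacing to the base, and the remaining 1 was off by 4 bases. Of 26 starting exons tried, 2 did as well by the largest deviation and 4 matched all 6 offsets within 10 bases, so the distances do not say which exons these are. Over the 9 units of that placement, exon pairs 3 units apart were 91.2% identical in the median (6 pairs), against 85.3% for neighbours (8 pairs) and 87.3% at 2 units (7 pairs). At 4, 5 and 6 units the medians were 84.3% (5 pairs), 96.6% (4 pairs) and 86.3% (3 pairs), so the next multiple of 3 was not raised as 3 was. Over all 26 pairs the medians at 1, 2 and 3 units were 84.3, 84.3 and 85.3%.

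The other 2 clusters of the ANKRD36 window stood apart. One, the Alu cluster of 169 bases, started at 97829325, 29727 bases before the first of the 6. The second, non-Alu and 130 bases long, started at 97897347, 23342 bases after the last.

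**Figure D2:**
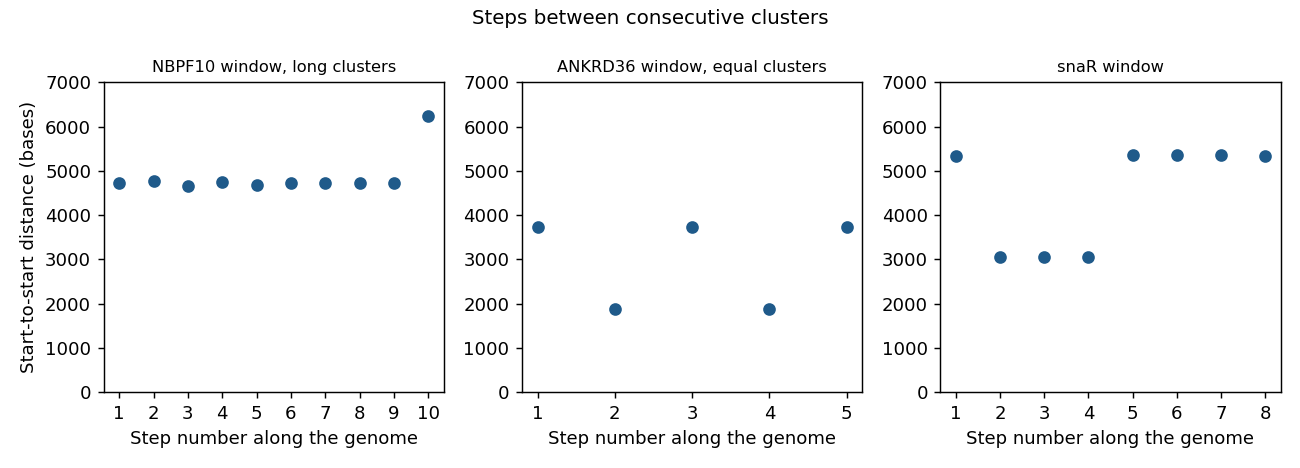
Start-to-start distances in bases between consecutive clusters, in order along the genome, for the 11 long clusters of the NBPF10 ladder, the 6 equal clusters of the ANKRD36 window and the 9 clusters of the snaR window. The first 9 NBPF10 steps lie between 4656 and 4768 bases and the last at 6245, ANKRD36 steps alternate between 1870 bases and 3735 to 3743, and snaR steps fall into 2 groups.

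The snaR window was uniform in length, class and strand. All 9 clusters were 121 bases long, non-Alu and on the minus strand, starting at 50595746 and ending with the one from 50631659 to 50631779. Their steps were 5337, 3065, 3064, 3059, 5354, 5352, 5354 and 5328 bases. They thus formed 2 classes, 3 short steps of 3059 to 3065 bases and 5 long ones of 5328 to 5354.

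Each of these steps equals a distance between neighbouring snaR genes. RefSeq (GRCh38.p14) lists 9 consecutive genes, SNAR-A4, SNAR-A14 and SNAR-A5 to SNAR-A11, whose 8 start-to-start distances match the 8 cluster steps to the base. All 9 genes are 121 bases long, the length of each cluster under the reading of starts used here. That reading was chosen partly because it makes these lengths equal, so the equality is no separate finding. Read as BED starts, each cluster would be slightly shorter than its gene. Genes were paired with clusters by these distances, and no position was carried from one build to the other. The next genes in RefSeq, SNAR-B1, SNAR-B2 and SNAR-D, start 5343, 10716 and 11800 bases after SNAR-A11. At those distances all 3 would fall inside the window, where 0 clusters followed the ninth.

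A wider search compared any pair of same-strand non-Alu clusters of chromosome 19 under 20 kb apart with any pair of its snaR genes. How many pairs were compared is not given here. Spacings equal to the base were found for 3 more clusters elsewhere on chromosome 19. They lay on the plus strand from 48421686 to 48421807, from 48427036 to 48427156 and from 48437438 to 48437559. Their spacings of 5350 and 10402 bases equal those of SNAR-A1, SNAR-A3 and SNAR-A2. Under the reading of starts used here, their lengths of 122, 121 and 122 bases equal the lengths of those genes. This equality also went into the choice of that reading. In RefSeq that array holds 10 genes, 5 of the A kind and 5 of the C kind, so SNAR-A12, SNAR-A13 and the 5 SNAR-C genes had no cluster at a matching distance. RefSeq lists 28 symbols that start with SNAR, 23 with NBPF and 6 with ANKRD36. Over both arrays, 12 of the 14 SNAR-A genes in RefSeq had a matching cluster. Places without a cluster cannot be judged without depth.

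The loci differed in length and in how often neighbours were equally long. The median length was 171 bases in the NBPF9 window, 223 in the NBPF10 window, 221 in the ANKRD36 window and 121 in the snaR window, against 192 bases over all 3582 non-Alu clusters (quartiles 142 and 223). Of consecutive same-strand non-Alu clusters under 20 kb apart, 2.39% had exactly equal lengths in the whole list (23 of 961). In the snaR window 8 of 8 such neighbours were equal, and in the ANKRD36 window 5 of 5. In the NBPF10 window the count was 1 of 16, and in the NBPF9 window 0 of 10. These 4 windows supply 14 of the 23 equal neighbours, and outside them the share was 0.977% (9 of 921).

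**Figure D3:**
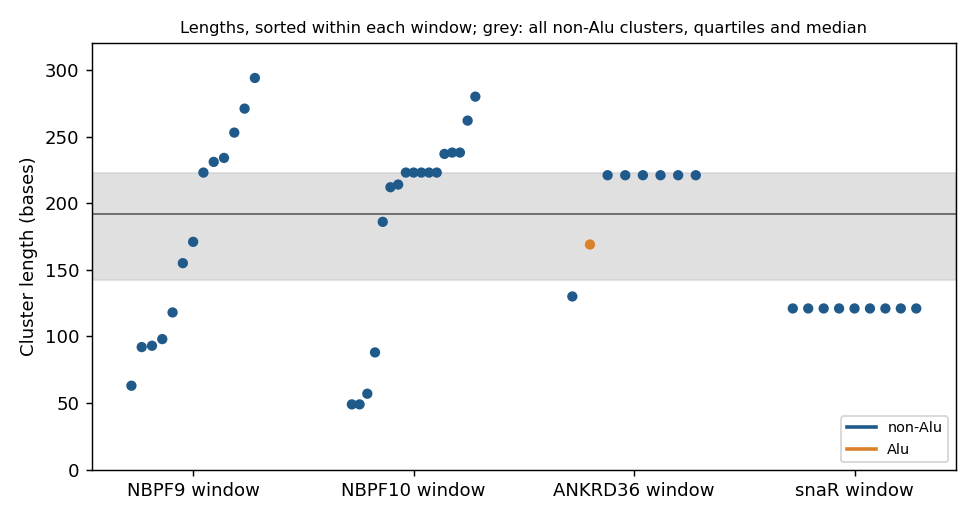
Cluster lengths in bases, sorted within each window, with the median (192 bases) and the quartiles (142 and 223) of all non-Alu clusters in grey. The snaR clusters all lie at 121 bases and 6 ANKRD36 clusters at 221. The NBPF9 window spreads over 63 to 294 bases and the NBPF10 window over 49 to 280.

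A spacing was counted as recurring when another same-strand pair, sharing no cluster with the first, had the same start-to-start distance within 10 bases. The genome was divided into stretches of 100 kb, and each strand of a stretch was counted on its own. At least 4 clusters were present in 1220 of these single-strand stretches. A recurring spacing was present in 0.984% of these (12 single-strand stretches). Because the loci were picked for this feature, their presence among the 12 is no finding. Within the loci, 13 of 15 pairs recurred in the ANKRD36 window (86.7%), 35 of 61 in the NBPF10 window (57.4%) and 10 of 27 in the snaR window (37.0%). The value for the NBPF9 window was 8.70%.

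Outside the loci, 3 windows had the most recurring spacings. The highest, on the minus strand of chromosome 11 from 62200001, had 157 recurring among 325 pairs (48.3%) of 26 clusters. The window on chromosome 15 from 43800001 had 11 of 66 (16.7%) from 12 clusters, and the one on the minus strand of chromosome 2 from 216200001 had 10 of 116 (8.62%) from 22. The locus shares above come from windows of other sizes than 100 kb. In the fixed stretches they were 86.7% for ANKRD36, 61.1% for NBPF10 (from 145300001), 36.4% for snaR (from 50600001) and 8.89% for NBPF9. The loci were picked for recurring spacings, so their rank beside these 3 windows is no finding. No difference between windows was tested.

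**Figure D4:**
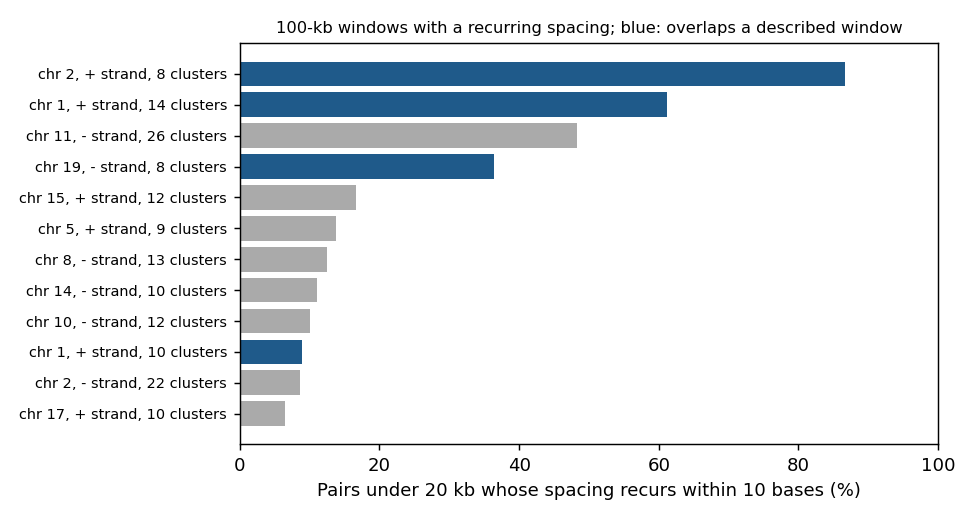
Share of same-strand pairs under 20 kb whose spacing recurs within 10 bases, for the 12 single-strand windows of 100 kb that hold at least 1 recurring spacing. Blue bars overlap a window described here, and those windows were picked for this feature. The highest bars are the ANKRD36 window at 86.7% and the NBPF10 part from 145300001 at 61.1%, followed by the chromosome 11 window at 48.3%.

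The clusters nearest to the limits on the outside were 8593 bases away (218 bases long, non-Alu, plus strand, before the NBPF10 window) and 15545 bases away (188 bases long, non-Alu, minus strand, after the NBPF9 window). At the other 6 limits the nearest outside cluster was Alu, 33145 bases or more away. For the ANKRD36 window only plus-strand clusters were searched, so a nearer minus-strand cluster would not be seen. The nearest inside cluster lay 3560 bases from a limit, in the NBPF10 window.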

How the data were processed

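ADAR1 CLIP-seq clusters from U87MG were analysed from 1 list that the authors deposited for both libraries. The deposited values are genome positions (chromosome, start, end), with an Alu or non-Alu class and a strand. Per the submitters' processing notes, cutadapt 1.1, Novoalign 2.08.22 and hg19 were used; the cluster caller, its thresholds, the joining of the libraries and the treatment of reads with several matches are steps not given in the sources used here. Each can change lengths, gaps and which copies are listed.

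Positions are printed as deposited and starts are read as counted from 1, because lengths so counted equal RefSeq's for 12 of 12 snaR genes and because same-strand neighbours start at least 2 after the previous end in the list (5 pairs at 2, 0 at 1). Read as BED starts counted from 0, every length would be 1 base shorter. The equal lengths of snaR clusters and snaR genes therefore rest on this choice and are no separate finding.

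Spacings, lengths and shares were computed with Python 3.11.15, numpy 2.4.6 and pandas 2.3.3, and figures drawn with matplotlib 3.10.9; the spacing code was tested on simulated data. Pairs were considered under 20 kb. RefSeq (GRCh38.p14) and GENCODE 29 served for names, lengths and distances between neighbours. No test over samples was possible. The loci, members and measures were chosen with earlier results of these data known. The genes named are those of the chosen windows and RefSeq genes whose symbols start with SNAR. For the 3 windows most like the chosen ones by recurring spacings, positions are given and no gene is named. No position of the NBPF and ANKRD36 relatives was used.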

Additional observations from a re-analysis of the deposited data

How the results depend on the processing

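Of 54 alternative values, 46 stayed within the spread of the steps, spacings or lengths of the window or, for counts, within 1.5 times. Exact equality in place of 10 bases lowered the number of recurring spacings from 4 to 0 in the NBPF9 window, from 35 to 0 in the NBPF10 window, from 13 to 7 in the ANKRD36 window and from 10 to 4 in the snaR window, by construction. A tolerance of 50 bases raised it to 7 in the NBPF9 window and to 22 in the snaR window. With midpoints in place of starts the NBPF9 window had 0. With clusters longer than 200 bases alone, its most frequent spacing changed from 1505 to 752 bases, resting on 1 pair, and its median step from 1475 to 6839 bases; the filter leaves 4 steps. The snaR window has no cluster over 200 bases, so that filter gave no value there. No paired analysis was possible because AB1 and AB2 are single libraries merged in the list, which likewise prevents leaving either out. The cause of these changes was not tested beyond what each setting does by construction. The depth behind each cluster is unknown.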

Other observations

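Other non-Alu clusters of chromosome 1 (hg19) also recurred at equal spacing and with lengths within 5 bases, and were found after the data were seen. On the plus strand, a 49-base cluster at 148589819 was followed after 4697 bases by one of 251 bases, and a 49-base cluster at 148751867 was followed after 4696 bases by one of 248. On the minus strand, clusters of 428 and 251 bases at 146033241 and 146034039, 798 bases apart, recurred as clusters of 428 and 247 bases at 147575022 and 147575820, also 798 bases apart. In the same stretches, clusters of 216, 191 and 153 bases at 146055433, 146059873 and 146073281 recurred as 220, 191 and 152 bases at 147597270, 147601710 and 147615117, with distances of 4440 and 13408 bases in the first place and 4440 and 13407 in the second. Genes were not assigned to these positions.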
